A study of Homo sapiens with 12 samples.

Results

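The T-cell receptor recognises antigen but has almost no intracellular part of its own, and the CD3 chains that assemble with it carry the signal into the cell. The kinase LCK phosphorylates the CD3 chains, ZAP70 binds the phosphorylated chains, and ZAP70 in turn phosphorylates the membrane adaptor LAT, on which the enzymes of the calcium and RAS branches gather. CD5 and CD7 are surface proteins of the T lineage, CD28 is the main costimulatory receptor, and leukaemias of the T lineage are recognised in part by these molecules. The genes described here are 10 members of this complex and its proximal signalling, chosen by symbol: CD3D, CD3E, CD3G, CD247, CD5, CD7, CD28, LCK, ZAP70 and LAT. Of these, 4 were among the 5759 genes of the authors' deposited table (CD3G, CD7, ZAP70 and LAT), and the other 6 are not analysed here.

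RNA was sequenced from MOLT4, an established human T lymphoblast line from an acute lymphoblastic leukaemia, labelled wild type in every group. The 12 samples formed 4 groups of 3: the vehicle DMSO (6 h), 955 at 0.1 µM (1 h), 955 at 0.1 µM (6 h) and SNS-032 at 1 µM (6 h). SNS-032 inhibits cyclin-dependent kinases, among them CDK9, which releases paused RNA polymerase II, and the labels call it the warhead of 955, in a series on piperlongumine conjugates that degrade proteins. The study asked how the effects of 955 compare with those of this warhead. Doses of the 2 compounds differed, and the only DMSO group was collected at 6 h, so at 1 h treatment and time in culture cannot be told apart. All cells were of 1 line, and no label says whether replicates were separate cultures. The p-values rest on the spread between these samples, which may be technical. Their degrees of freedom (median 23.3) exceed the 8 that 12 samples in 4 groups leave. They thus rest on more than the spread of a single gene in these samples.

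The table gives no values of single samples, and depth per sample is unknown. For each gene it holds a log2 fold change of each treated group against DMSO, an average level over all samples in log2 CPM (CPM are counts scaled to a fixed library total), and the F, p and false discovery rate (FDR) of its test. The threshold used here asks for an FDR under 0.05 and a log2 fold change of 1 or more in size. Of the 5759 genes, 5757 were past the threshold in 1 or more of the 3 comparisons. A listed member thus had to have changed somewhere, and the number of listed members that did is no finding. By the ranks behind the FDR, the listed genes are 20.3% of 28395 tests. Errors are standard errors implied by the fold change and F (SE), with 95% intervals. In bulk RNA, fewer cells of a kind and less RNA per cell cannot be told apart.

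The 4 listed members divided into 2 pairs after 6 h of either treatment. On the authors' scaling, CD7 and ZAP70 were roughly 3-fold higher than in DMSO and CD3G was lower by nearly as large a factor, while LAT was lower by about 2-fold. By the authors' deposited table, 3 members were past the threshold with 955 at 6 h (2 higher, 1 lower) and 4 with SNS-032 (2 higher, 2 lower). Over all listed genes, 85.3% were past it with 955 at 6 h (35.2% higher and 50.1% lower) and 90.2% with SNS-032 (37.8% higher and 52.5% lower), so shares of this size are the background of the table. All 4 had an FDR under 0.05 in both, against 93.5% and 95.7% of listed genes. At 1 h of 955, 0 members were past the threshold, against 8.44% of listed genes (0.729% higher and 7.71% lower). In the authors' test 1 member had an FDR under 0.05, against 16.6% of listed genes. By unadjusted p, 2 of the 4 were under 0.05 at 1 h, and no other tool could be run on values of this kind. The directions of CD7 and ZAP70 turn when the data are scaled on mitochondrial mRNAs. That of LAT with 955 at 6 h turns, to 0.10, when they are scaled on the median of listed genes. Both are given with those scalings. CD3G stays below 0 at 6 h under each scaling, but is not past the threshold on the median of listed genes.

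**Figure D1:**
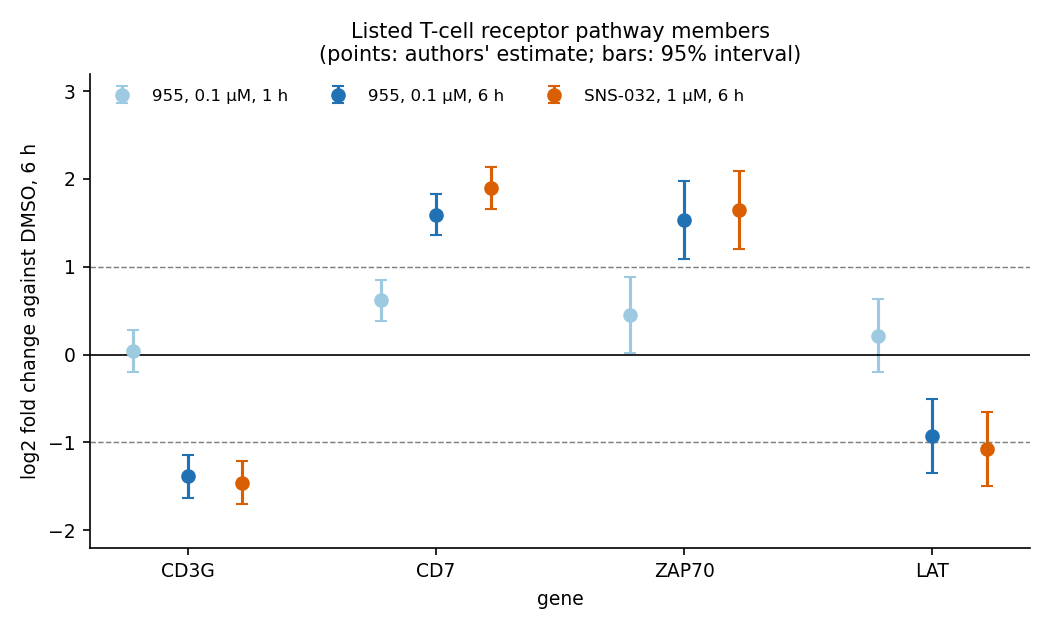
Log2 fold change against DMSO at 6 h (vertical axis) for the 4 listed members in the 3 treated groups; points are the authors' estimates, bars are 95% intervals, each group has 3 samples, and dashed lines mark a log2 fold change of 1 in either direction. At 6 h CD7 and ZAP70 lie above the upper line and CD3G below the lower one on the authors' scaling (CD7 and ZAP70 fall below 0 when scaled on mitochondrial mRNAs), while at 1 h every point lies within the lines.

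CD3G (gene ID 917) encodes the gamma chain of CD3, 1 of the invariant chains that carry the receptor's signal. In the authors' deposited table its log2 fold change was 0.038 at 1 h of 955 (FDR 1), -1.39 at 6 h of 955 (FDR 1.34e-09) and -1.46 with SNS-032 (FDR 5e-10). The SE was 0.12 in each, and the intervals were -0.20 to 0.28 at 1 h, -1.63 to -1.14 at 6 h of 955 and -1.70 to -1.22 with SNS-032. On the authors' scaling CD3G thus fell 2.62-fold with 955 (interval 2.21 to 3.10) and 2.75-fold with SNS-032 (2.32 to 3.26), and at 1 h its interval held 0. Scaled on the median of listed genes, CD3G was at -0.36 and -0.39, no longer past the threshold. Its average level of 7.13 log2 CPM corresponds to about 202 CPM in DMSO, 207 at 1 h, 77.1 at 6 h of 955 and 73.4 with SNS-032, if the average is the log2 of the mean CPM over equal groups. These levels have no error of their own, and reading the average as a mean of logs would put DMSO at 228 CPM. Among all listed genes, 33.5% had a lower fold change with 955 at 6 h and 34.1% with SNS-032, so the fall of CD3G was of an ordinary size for this table.

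CD3G spans 10818 bases of chromosome 11 (start 118344344, end 118355161, plus strand, in RefSeq on GRCh38.p14). It lies head to head with CD3D, whose start site is 1639 bases away on the opposite strand, and the start of CD3E is 39614 bases away. CD3D and CD3E, the delta and epsilon chains, are not analysed here. In GENCODE release 29, 0 other genes overlap CD3G, CD7 or ZAP70. LAT is overlapped by 2: a processed transcript on the same strand (5950 bases shared) and an antisense gene (1639 bases shared). The strand used in counting is not given in the sources used here, so reads of the antisense gene cannot be told apart from those of LAT. Reads of the same-strand transcript could not be told apart by strand in any case.

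CD7 (gene ID 924) encodes an immunoglobulin-superfamily protein that appears early in T-cell development and is a standard marker of T-lineage leukaemia. Its log2 fold change in the authors' deposited table was 0.62 at 1 h (FDR 0.00131), 1.59 at 6 h of 955 (FDR 1.01e-10) and 1.90 with SNS-032 (FDR 4.94e-12), with SEs of 0.11, 0.12 and 0.12. CD7 thus rose 3.02-fold with 955 (2.56 to 3.56) and 3.73-fold with SNS-032 (3.15 to 4.40) on the authors' scaling. At 1 h the interval was 0.39 to 0.85, above 0 but under the fold-change bound, and CD7 was the only 1 of the 4 listed members with an FDR under 0.05 at that time. The average of 7.06 log2 CPM corresponds, in the same reading, to about 57.4 CPM in DMSO, 88.2 at 1 h, 173 at 6 h of 955 and 214 with SNS-032. With a mean of logs DMSO would be at 65.3 CPM. The gene is short, 2736 bases on the minus strand of chromosome 17 (start 82314873, end 82317608), and 6.62% of listed genes have a shorter span.

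ZAP70 (gene ID 7535) encodes the kinase that docks on phosphorylated CD3 chains. Its log2 fold change in the authors' deposited table was 0.45 at 1 h (SE 0.20, FDR 0.369), 1.53 at 6 h of 955 (SE 0.20, FDR 6.1e-05) and 1.64 with SNS-032 (SE 0.20, FDR 3.13e-05). On the authors' scaling ZAP70 thus rose 2.89-fold with 955 (2.13 to 3.92) and 3.12-fold with SNS-032 (2.30 to 4.25). The average of 10.14 log2 CPM corresponds to about 538 CPM in DMSO, 735 at 1 h, 1555 at 6 h of 955 and 1681 with SNS-032 (602 CPM in DMSO with a mean of logs). Its SE was larger than the 0.12 or less of CD3G and CD7, so its intervals are wider. ZAP70 spans 42789 bases of chromosome 2 (start 97713576, end 97756364, plus strand), and 69.9% of listed genes are shorter.

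LAT (gene ID 27040) encodes the membrane adaptor that ZAP70 phosphorylates. In the authors' deposited table its log2 fold change was 0.21 at 1 h (SE 0.19, FDR 0.831), -0.93 at 6 h of 955 (SE 0.19, FDR 0.00187) and -1.08 with SNS-032 (SE 0.20, FDR 0.000551). LAT was 1.90-fold lower with 955 (interval 1.42 to 2.55), under the fold-change bound, and fell 2.11-fold with SNS-032 (1.58 to 2.82), where it was past the threshold. It is in the table through SNS-032 alone. The average of 8.58 log2 CPM corresponds to about 485 CPM in DMSO, 563 at 1 h, 255 at 6 h of 955 and 230 with SNS-032 (523 CPM in DMSO with a mean of logs). LAT spans 5982 bases of chromosome 16 (start 28984803, end 28990784, plus strand). Its fold changes lay close to the median of all listed genes, which was -1.03 with 955 at 6 h and -1.07 with SNS-032.

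**Figure D2:**
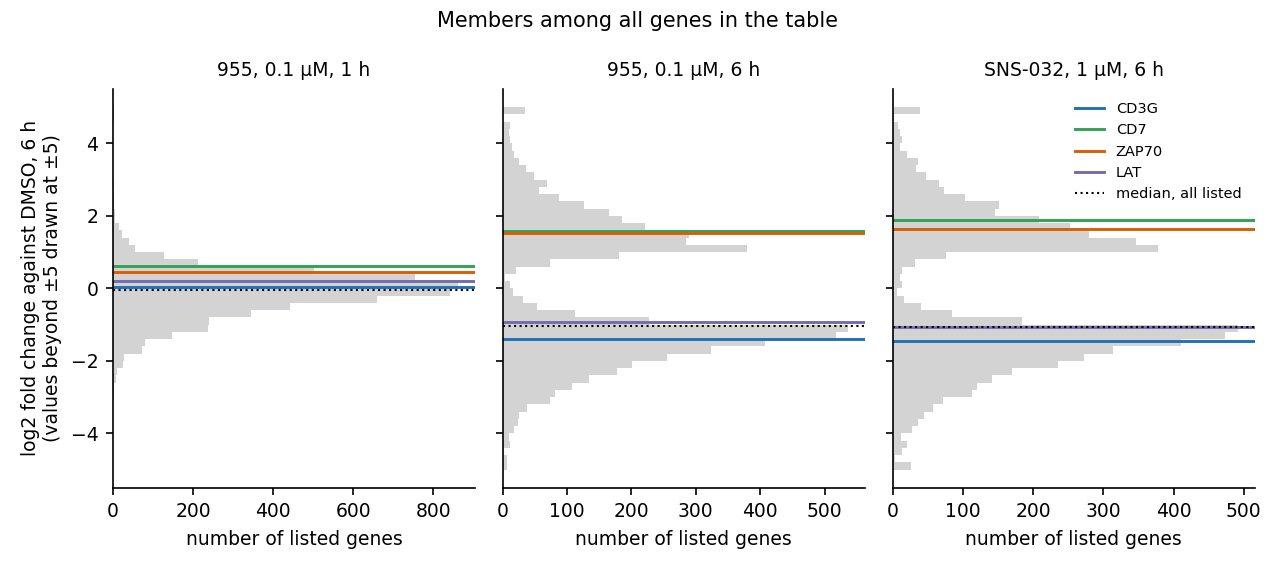
Number of listed genes (horizontal axis) by log2 fold change against DMSO at 6 h (vertical axis) for the 3 treated groups, with a coloured line at each member and a dotted line at the median of the 5759 genes. At 6 h few listed genes lie near 0, because the table lists genes that changed; LAT lies at the dotted line, CD3G a little below it, and CD7 and ZAP70 in the upper part (below 0 if scaled on mitochondrial mRNAs).

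ZAP70 and LAT, neighbours in the pathway, moved in opposite directions on the authors' scaling, so the 250 bases before their first annotated start are shown. They are from RefSeq on GRCh38.p14, whose promoter table holds windows for 2 of the 4 listed members, ZAP70 and LAT. It holds 3 start sites for ZAP70 and 2 for LAT. Only the first of each is shown, and the start used in these cells was not measured. The capitals mark the ETS core GGAA, or TTCC where it lies on the other strand, the core of the sites of a transcription factor family active in T cells. ZAP70 is at chr2:97713326-97713575 and LAT at chr16:28984553-28984802, both on the plus strand, and each is written 5′ to 3′.
ZAP70: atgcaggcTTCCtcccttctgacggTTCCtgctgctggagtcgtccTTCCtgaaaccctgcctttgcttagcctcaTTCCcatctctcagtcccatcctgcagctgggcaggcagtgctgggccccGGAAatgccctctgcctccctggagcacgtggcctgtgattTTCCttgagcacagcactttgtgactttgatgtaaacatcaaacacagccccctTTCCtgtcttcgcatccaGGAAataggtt
LAT: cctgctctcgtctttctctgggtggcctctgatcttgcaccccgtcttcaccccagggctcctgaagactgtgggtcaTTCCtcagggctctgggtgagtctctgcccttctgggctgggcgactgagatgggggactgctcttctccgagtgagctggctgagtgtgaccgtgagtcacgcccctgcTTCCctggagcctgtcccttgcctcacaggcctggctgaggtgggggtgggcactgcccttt

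The ZAP70 window held 8 matches to GGAA and the LAT window 2, counted on both strands with overlaps allowed. Of 35116 windows of this length in the promoter table, 92.7% held at least 1 and the median was 3. The E-box letters CANNTG occurred 2 times before ZAP70 and 0 times before LAT, and in 61.8% of all windows. The AP-1 letters TGANTCA occurred 1 time before LAT and 0 times before ZAP70, and in 6.57% of all windows. Neither window held a TATA box (TATAAA, in 10.7% of all windows) or a GC box (GGGCGG, in 42.6%). The GC content was 55.2% before ZAP70 and 63.2% before LAT, with a median of 58% over all windows. These are matches of letters, and binding was not measured.

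Between 1 h and 6 h of 955, all 4 listed members moved away from DMSO. No member was past the threshold at 1 h, so each is in the table through a change at 6 h. A larger distance from DMSO at 6 h was therefore favoured by that selection. The comparison of 6 h with 1 h, like the one between compounds, was approximated as one log2 fold change minus the other. Both were taken against the same DMSO samples, with adjustment over the 5759 genes. With no DMSO at 1 h, longer treatment and longer time in culture cannot be told apart in the comparison over time. CD3G was lower at 6 h than at 1 h by a log2 difference of -1.42 (interval -1.67 to -1.18) and LAT by -1.14 (-1.56 to -0.73). ZAP70 was higher by 1.08 (0.64 to 1.52) and CD7 by 0.98 (0.74 to 1.21) on the authors' scaling. The adjusted p, from the t distribution with the degrees of freedom of the authors' fit, was 2.57e-10 for CD3G, 9.92e-05 for LAT, 0.000314 for ZAP70 and 6.78e-08 for CD7. CD3G, LAT and ZAP70 were past the threshold and CD7 was just under the fold-change bound, so 3 of 4 members were past it, 1 higher and 2 lower, against 62.7% of listed genes (27% higher and 35.6% lower). On the authors' scaling all 4 had an adjusted p under 0.05, against 84.7%.

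No listed member passed the threshold between the treatments at 6 h. In the approximate contrast of 955 at 0.1 µM with SNS-032 at 1 µM, 0 of the 4 members were past the threshold, 0 had an adjusted p under 0.05 and 1 (CD7) had an unadjusted p under 0.05, against 1.11% of listed genes past the threshold (0.851% higher with 955 and 0.26% lower) and 2.73% with an adjusted p under 0.05. The log2 difference (955 minus SNS-032) was -0.30 for CD7, with an interval of -0.54 to -0.06 and an adjusted p of 0.198. It was -0.11 for ZAP70 (-0.56 to 0.33), 0.15 for LAT (-0.27 to 0.57) and 0.072 for CD3G (-0.17 to 0.32). The 2 widest intervals, those of ZAP70 and LAT, reach -0.56 and 0.57 on the log2 scale, so the values do not show that the treatments acted alike on them. The doses differ by design, and the values compare the treatments as given. LAT passed the threshold with SNS-032 and not with 955, but its difference between them had an adjusted p of 0.807.

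**Figure D3:**
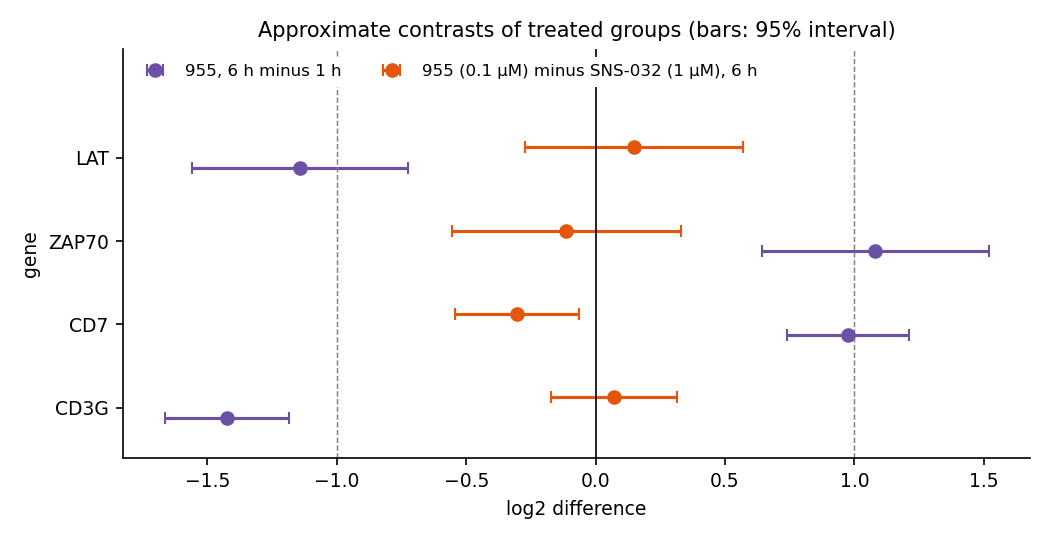
Log2 difference (horizontal axis) between 2 treated groups for each listed member, with 95% intervals: 955 at 6 h minus 955 at 1 h, and 955 at 0.1 µM minus SNS-032 at 1 µM at 6 h; dashed lines mark a difference of 1. The differences over time lie on either side of 0 with intervals that do not reach it, while those between compounds lie between -0.30 and 0.15. Scaled on mitochondrial mRNAs, the differences over time of CD7 and ZAP70 turn negative, with an adjusted p (t distribution) of 0.173 for ZAP70.

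The wider pathway was described through 5 lists of 113 other genes, of which 53 were in the table. Being listed already means a change, and the listed genes are 20.3% of the tests behind the FDR. The lists were chosen with earlier results known, so the share of them in the table is no finding. In the table deposited by the authors, 47 of the 53 were past the threshold with 955 at 6 h, 17 higher and 30 lower, and 47 with SNS-032, 18 higher and 29 lower. That is 88.7% in each, near the 85.3% and 90.2% of all listed genes, of which 35.2% and 37.8% were higher, so neither count sets the pathway apart from the table. The median log2 fold change was -1.08 and -1.05, beside -1.03 and -1.07 over all listed genes. At 1 h of 955, 4 were past it and all 4 were lower: the adaptors DOK1 and LAX1, the calcium channel subunit ORAI1 and the PI3-kinase subunit PIK3R1. These 4 are 7.55% of the 53, near the 8.44% of all listed genes, most of which were also lower at 1 h (7.71% lower and 0.729% higher). Scaled on mitochondrial mRNAs, 0 were higher and 37 lower with 955 at 6 h, and 0 higher and 43 lower with SNS-032. Scaled on the median of all listed genes, the split was 18 higher and 7 lower with 955 and 18 higher and 8 lower with SNS-032. That median is of genes listed for a change, and is no baseline of all genes tested.

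Of 8 other genes listed with the receptor chains, TRAT1 alone was in the table. It encodes a transmembrane adaptor that stabilises the receptor complex and is not itself a receptor chain. TRAT1 fell with both treatments, like CD3G. In the authors' deposited table its log2 fold change was -2.36 with 955 at 6 h (SE 0.21, FDR 2.27e-09) and -1.92 with SNS-032 (SE 0.20, FDR 3.91e-08), the latter at -0.85 on the median of listed genes, under the fold-change bound.

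Of 28 other surface molecules and coreceptors, 16 were in the table: 5 rose and 9 fell with 955 at 6 h, and 6 rose and 8 fell with SNS-032 (87.5% in each, near the 85.3% and 90.2% of all listed genes). The 3 largest changes in the authors' deposited table were falls, given first for 955 at 6 h and then for SNS-032. CD2, an adhesion receptor of T cells, fell, with log2 fold changes of -3.17 (SE 0.18, FDR 2.6e-12) and -3.35 (SE 0.18, FDR 9.01e-13) in the same order, 8.98-fold and 10.2-fold lower than in DMSO. IL7R, the interleukin-7 receptor chain, was at -3.64 (SE 0.80, FDR 0.00121) and -4.48 (SE 0.85, FDR 0.000296), at an average of 0.53 log2 CPM. CD69, an early activation marker, was at -2.78 (SE 0.77, FDR 0.0216) and -2.86 (SE 0.78, FDR 0.019), and was no longer past the threshold when scaled on the median of listed genes (adjusted p 0.0684 and 0.0647). CD7 was therefore among the surface genes that rose on the authors' scaling, while CD2, another T-lineage marker, fell.

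Of 16 other proximal kinases and phosphatases, 8 were in the table: 2 rose and 5 fell with 955 at 6 h, and 2 rose and 4 fell with SNS-032 (87.5% and 75%, beside 85.3% and 90.2% of all listed genes). TEC, a non-receptor tyrosine kinase, rose by 1.90 (SE 0.37, FDR 0.000206) and 1.68 (SE 0.37, FDR 0.000707) in the authors' deposited table, and like ZAP70 it was below 0 when scaled on mitochondrial mRNAs. CSK, an inhibitory kinase that acts on LCK, fell, with log2 fold changes of -1.55 (SE 0.13, FDR 9.03e-10) and -1.43 (SE 0.13, FDR 2.68e-09) there. UBASH3A, a negative regulator of receptor signalling, fell, with log2 fold changes of -1.86 (SE 0.16, FDR 1.39e-09) and -1.79 (SE 0.16, FDR 2.15e-09). Scaled on the median of listed genes, CSK was at -0.52 and -0.36 and UBASH3A at -0.83 and -0.72, all under the fold-change bound.

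Of 26 other adaptors and scaffolds, 12 were in the table: 4 rose and 7 fell with 955 at 6 h, and 4 rose and 8 fell with SNS-032 (91.7% and 100%, beside 85.3% and 90.2% of all listed genes). DOK1, an adaptor that dampens RAS signalling, fell, with log2 fold changes of -2.40 (SE 0.27, FDR 1.1e-07) and -3.40 (SE 0.28, FDR 8.82e-10) in the authors' deposited table. It was the only 1 of the 53 genes past the threshold between the treatments, with a log2 difference of 1.01 (SE 0.28, adjusted p 0.0499), chosen for mention after its value was seen. That call was lost under 4 of the 5 alternatives, with adjusted p-values of 0.0625 to 0.615, and kept under mitochondrial scaling (0.00442). LAX1, an inhibitory adaptor of the LAT type, fell, with log2 fold changes of -1.63 (SE 0.29, FDR 8.17e-05) and -2.11 (SE 0.30, FDR 3.55e-06) in the authors' deposited table, the first of which was at -0.61 (adjusted p 0.0692) on the median of listed genes. GAB2, a scaffold that binds phosphatases and PI3-kinase, rose by 1.99 (SE 0.43, FDR 0.00432) and 2.49 (SE 0.43, FDR 0.00101) there, but was at -0.083 with 955 and 0.14 with SNS-032 on mitochondrial scaling.

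Of 35 downstream effectors, 16 were in the table: 6 rose and 8 fell with 955 at 6 h, and likewise 6 and 8 with SNS-032 (87.5% in each, near the 85.3% and 90.2% of all listed genes). ORAI1, the pore of the store-operated calcium channel, fell, with log2 fold changes of -3.28 (SE 0.27, FDR 1.21e-07) and -3.73 (SE 0.28, FDR 3.52e-08) in the authors' deposited table. PIK3R1, the regulatory subunit of PI3-kinase, fell, with log2 fold changes of -3.13 (SE 0.16, FDR 4.81e-13) and -3.04 (SE 0.16, FDR 3.56e-13). BCL10, which links the receptor to NF-kB, fell, with log2 fold changes of -1.85 (SE 0.31, FDR 5.12e-05) and -2.73 (SE 0.33, FDR 4.6e-07), the first of which was at -0.82 on the median of listed genes, under the fold-change bound. The log2 fold changes of all 3 were larger in size than those of CD3G and LAT, a difference between genes that was not tested.

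The genes that act directly around ZAP70 and LAT were also read for their roles, after their values had been seen. LCP2 (SLP-76), the adaptor that ZAP70 phosphorylates beside LAT, fell in the authors' deposited table, with log2 fold changes of -1.61 (SE 0.30, FDR 0.00188) with 955 at 6 h and -1.50 (SE 0.30, FDR 0.0029) with SNS-032. Scaled on the median of listed genes it was at -0.59 (adjusted p 0.112) and -0.43 (adjusted p 0.234), and was no longer past the threshold. GRAP2 (Gads), which joins LCP2 to LAT, fell, with log2 fold changes of -1.15 (SE 0.14, FDR 3.03e-07) and -1.03 (SE 0.14, FDR 1.37e-06), and was at -0.13 and 0.035 when scaled on the median of listed genes. PLCG1, the phospholipase that docks on LAT, rose by 1.30 (SE 0.14, FDR 7.5e-08) and 1.43 (SE 0.14, FDR 1.68e-08), and was below 0 on mitochondrial scaling. CD4, the coreceptor that carries LCK, rose by 2.26 (SE 0.43, FDR 0.0031) and 2.37 (SE 0.43, FDR 0.00227) in the authors' deposited table, and was at 0.19 and 0.026 on mitochondrial scaling.

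**Figure D4:**
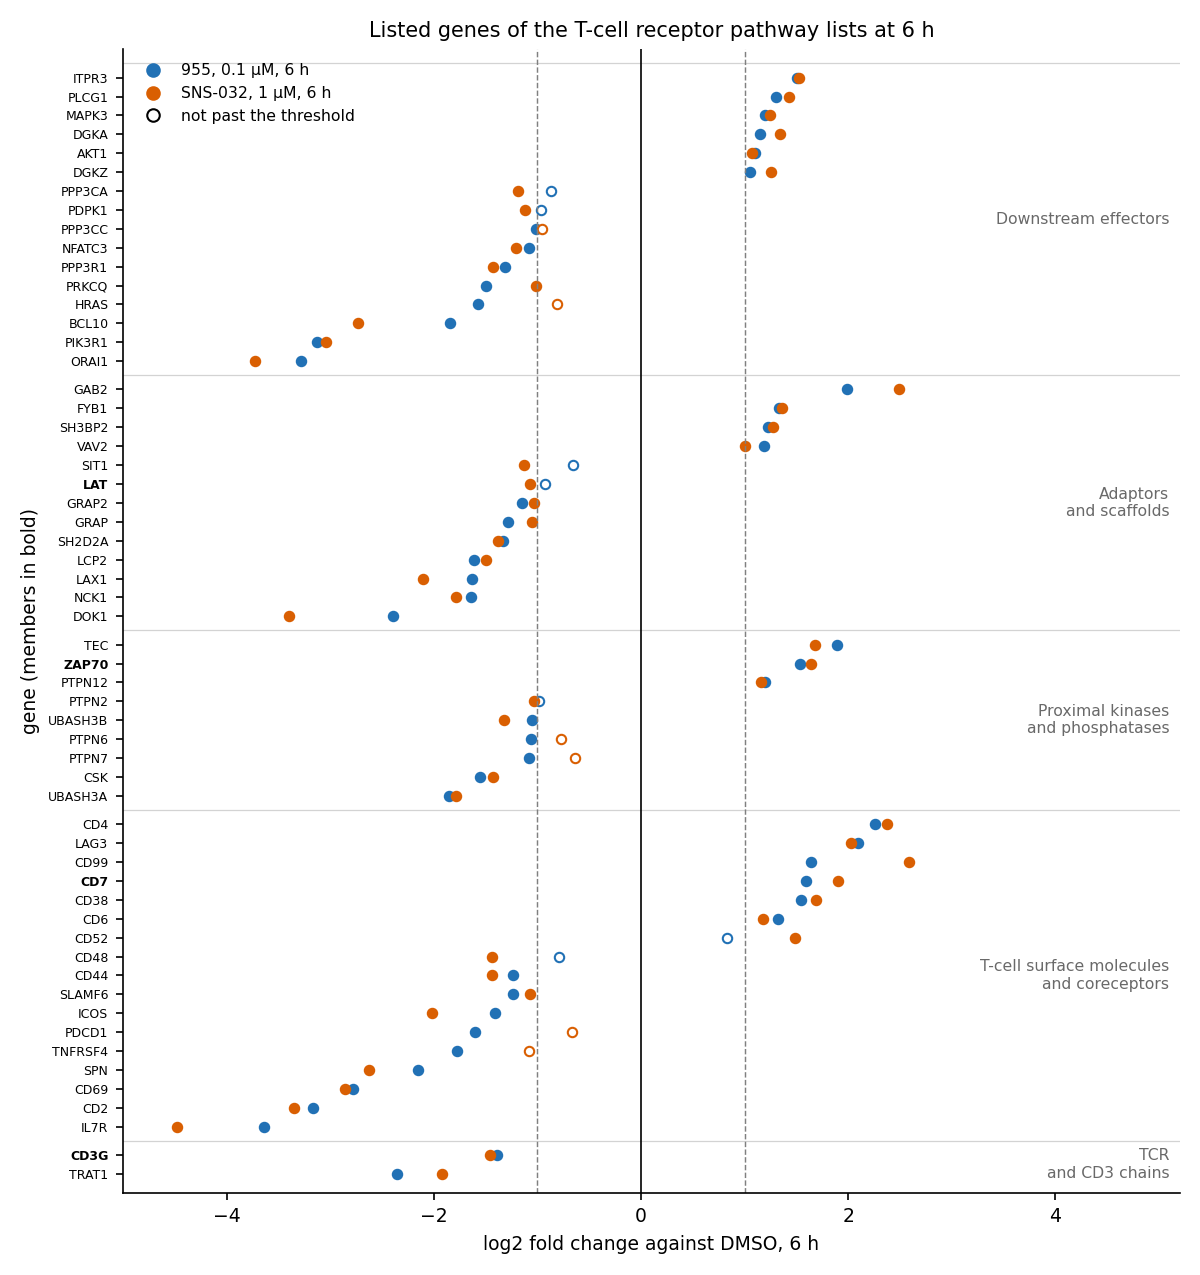
Log2 fold change against DMSO at 6 h (horizontal axis) for each listed gene of the 5 pathway lists and the 4 members (bold), with 955 in blue and SNS-032 in orange; open circles are not past the threshold and dashed lines mark a log2 fold change of 1. Both treatments fall on the same side of 0 for each gene shown, with IL7R, ORAI1, DOK1, CD2 and PIK3R1 farthest to the left; the genes on the right are placed by the authors' scaling, under which mitochondrial mRNAs also rise.

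How far the members rose or fell depended on what the samples were scaled to. The 13 mRNAs of the mitochondrial genome, transcribed by another polymerase than RNA polymerase II, had median log2 fold changes of 0.67 at 1 h, 2.07 at 6 h of 955 and 2.35 with SNS-032, computed from the authors' deposited table. Scaled on them, all 4 listed members were lower than in DMSO at 6 h: CD3G at -3.46 with 955 and -3.81 with SNS-032, LAT at -3.00 and -3.42, ZAP70 at -0.54 and -0.70, and CD7 at -0.48 and -0.45. For CD7 and ZAP70 these falls had adjusted p-values between 0.000548 and 0.0255 but were under the fold-change bound. These p-values, from a t distribution with unchanged SEs, take the reference as fixed and leave out its spread. Over the 13 mRNAs the log2 fold change ran from 1.90 to 2.34 with 955 at 6 h and 2.25 to 2.59 with SNS-032. Relative to the median of all listed genes, CD7 was at 2.62 with 955 and 2.97 with SNS-032, ZAP70 at 2.56 and 2.71, LAT at 0.10 and -0.0078, and CD3G at -0.36 and -0.39. Listed genes are there because they changed, so their median is no baseline of all genes tested. Distances between members within a comparison do not depend on the scaling. CD7 and CD3G lay 0.58 apart at 1 h, 2.98 apart at 6 h of 955 and 3.36 with SNS-032, and ZAP70 and LAT 0.23, 2.46 and 2.72 apart, on the log2 scale. The table gives no error for a distance between 2 genes.

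**Figure D5:**
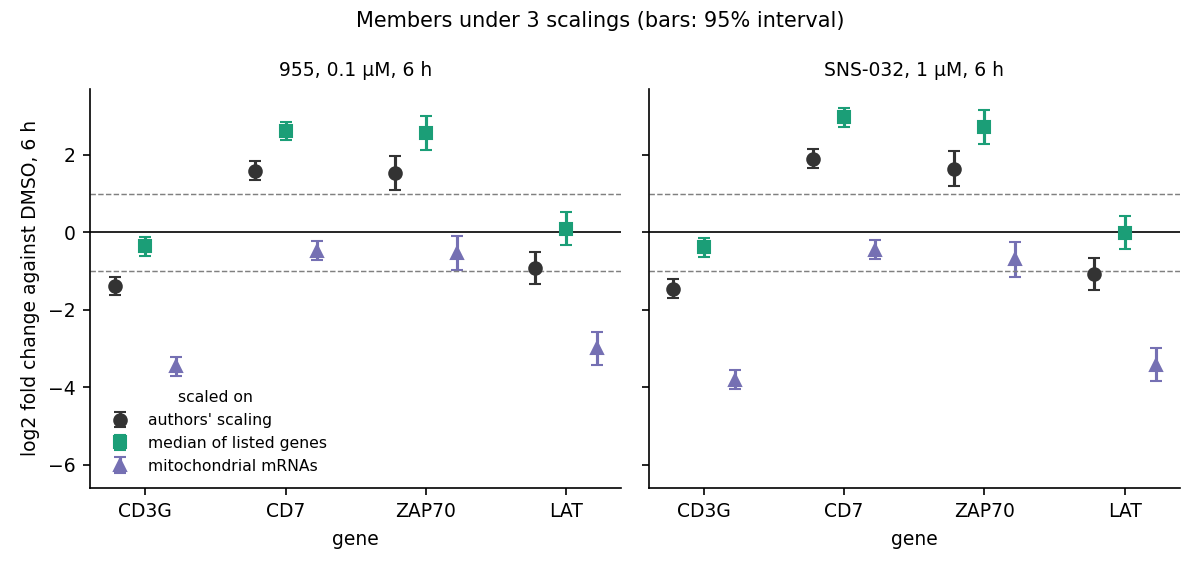
Log2 fold change against DMSO at 6 h (vertical axis) of the 4 listed members with 955 (left) and SNS-032 (right) on the authors' scaling (circles), scaled on the median of all listed genes (squares) and on the 13 mitochondrial mRNAs (triangles), with 95% intervals. CD7 and ZAP70 lie above CD3G and LAT under each scaling, but lie above 0 under the first 2 and below 0 under the third. The intervals take each reference as fixed and leave out its spread.

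Lineage markers were read beside the label of the cells. The table lists genes that changed, 20.3% of the tests behind the FDR. A marker's absence from it does not show that the gene was silent, so the counts do not test the label. Of 10 T-lineage markers 5 were in the table (ZAP70, LAT, CD3G, CD7 and CD2), all but CD2 being members, with averages between 4.75 and 10.1 log2 CPM. Of 8 early thymocyte markers 4 were in the table (CD1E, DNTT, CD1B and RAG2), at 3.74 to 8.06 log2 CPM. By the authors' deposited table RAG2, of the recombinase that assembles receptor genes, fell, with log2 fold changes of -3.02 (SE 0.27, FDR 2.37e-09) with 955 at 6 h and -3.07 (SE 0.27, FDR 1.72e-09) with SNS-032. CD1B, a lipid-presenting molecule of cortical thymocytes, fell, with log2 fold changes of -1.88 (SE 0.31, FDR 0.000842) and -2.01 (SE 0.31, FDR 0.000533), and was at -0.86 and -0.94 on the median of listed genes, under the fold-change bound. From the authors' deposited table too, DNTT, the polymerase that diversifies receptor junctions, was at 0.98 (FDR 0.0574) with 955 and rose by 1.33 (SE 0.33, FDR 0.0134) with SNS-032, and was below -1 on mitochondrial scaling. Of 4 B-cell, 5 myeloid and 4 NK-cell markers, 1, 0 and 1 were in the table. The CD79A average was 3.94 log2 CPM and that of NCAM1 was 0.89, and their part in the results was not tested.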

How the data were processed

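mRNA libraries of 12 MOLT4 samples (4 groups, 3 samples each) were sequenced, per the labels' protocols. The submitters' processing notes name the genome build hg38 and the tool DESeq2, whose usual output has no F or average log CPM, so the test behind these columns, from which every SE is derived, is not given in the sources used here. The aligner, counter, annotation, strand and filters are not given in the sources used here. Per the file headers, the table deposited by the authors holds, for 3 comparisons with DMSO, a log fold change (read as log2, since the smallest of the genes' largest absolute values is 1.001), an average log2 CPM, an F statistic (a score deposited by the authors), a p-value and an FDR. Gene IDs were matched to RefSeq symbols (5727 of 5759).

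Dividing the size of each log2 fold change by the root of its F gave the SE. Degrees of freedom were solved from F and p, and gave the 95% intervals. Contrasts of treated groups used the difference of 2 log2 fold changes, the root mean square of their SEs, a t distribution and Benjamini-Hochberg adjustment over all 5759 genes. Simulated data were also run, with equal SEs in all comparisons of a gene and 8 degrees of freedom. They could not test the approximation where the SEs of a gene differ. Ranks behind the FDR correspond to 28395 tests. Scripts ran in Python 3.11.15 with SciPy 1.17.1.

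The members and lists were chosen with earlier results of these data known. Genes named from each list are the 3 with the largest absolute log2 fold change past the threshold at 6 h in either treatment. For likeness, the rule takes the 3 genes nearest to the members' median profile. Alternatives were other thresholds, 2 other scalings, 2 other SEs, 8 degrees of freedom and adjustment over all 28395 tests. The 2 other scalings subtracted a fixed median and kept the SE, so their p-values leave out the error of that median. Some genes of the lists are not reported here.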

Additional observations from a re-analysis of the deposited data

Results flagged for a closer look

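On the authors' scaling, each of the 4 listed members differed between 6 h and 1 h of 955. This is by the approximate contrast, with an adjusted p under 0.05 over the 5759 genes. With DMSO at 6 h only, treatment and time in culture cannot be told apart in that contrast. No member was past the threshold at 1 h, so each was listed through 6 h, and a difference was favoured by that selection. The log2 difference (6 h minus 1 h) was 0.98 for CD7 and 1.08 for ZAP70, both on the authors' scaling, and -1.14 for LAT and -1.42 for CD3G. Scaled on mitochondrial mRNAs it was -0.42 for CD7 and -0.32 for ZAP70. By the t distribution the adjusted p was then 0.00186 for CD7 and 0.173 for ZAP70, so a difference of ZAP70 was not shown there. Of all listed genes, 84.7% had an adjusted p under 0.05 in this contrast.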

How the results depend on the processing

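The sign of several of the members' values depended on the scaling, while CD3G at 6 h and LAT with SNS-032 stayed below 0 under each. Scaled on mitochondrial mRNAs, the values at 1 h of 955 became -0.055 for CD7, -0.23 for ZAP70, -0.46 for LAT and -0.64 for CD3G. At 6 h they became, with 955 and SNS-032, -0.48 and -0.45 for CD7, -0.54 and -0.70 for ZAP70, -0.17 and -0.66 for TEC, -0.77 and -0.91 for PLCG1, -1.10 and -1.24 for CD79A, and -1.09 and -1.02 for DNTT. GAB2 became -0.083 with 955. ZAP70 became 0.16 for 955 minus SNS-032 and -0.32 for 6 h minus 1 h of 955, and CD7 -0.42 for the latter. Scaled on the median of all listed genes, LAT became 0.10 with 955 at 6 h and GRAP2 0.035 with SNS-032. With SNS-032, 2 members (2 lower) were past the threshold on mitochondrial scaling and 2 (2 higher) on the median of listed genes. The counts with 955 at 6 h were the same, 2 (2 lower) and 2 (2 higher).

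Without the fold-change bound, 1 member and 6 other pathway genes were called at 1 h of 955. With a bound of 2 on the size of the log2 fold change, 0 members were called in any comparison with DMSO, and 0, 10 and 14 other pathway genes for 955 at 1 h, 955 at 6 h and SNS-032. Mitochondrial scaling gave 25 at 1 h, and scaling on the median of listed genes 25 and 26 at 6 h. An FDR under 0.01 changed no call of a member, and neither did the 2 other SEs, 8 degrees of freedom or adjustment over 28395 tests in the contrasts of treated groups. No paired analysis was possible because the columns carry no replicates, and leaving out a replicate was not run for the same reason. Depth is unknown, so no detection limit is given.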

Other observations

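The table also lists 1 B-cell marker and 1 NK-cell marker, genes outside the labelled lineage. CD79A, a signalling chain of the B-cell receptor, by the authors' deposited table was at 0.97 (SE 0.20, FDR 0.000378) with 955 at 6 h, under the fold-change bound, and rose by 1.10 (SE 0.20, FDR 8.57e-05) with SNS-032. It was below 0 on mitochondrial scaling. NCAM1, an adhesion molecule used to mark NK cells, was in the authors' deposited table at 2.94 (SE 1.00, FDR 0.0477) with 955 and 2.79 (SE 1.00, FDR 0.0578) with SNS-032, and at 0.87 (adjusted p 0.439) and 0.45 on mitochondrial scaling.

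By Euclidean distance of the 3 log2 fold changes, the listed genes nearest to the median profile of the 4 members were RPS4X (0.79), RPS16 (0.79) and ACAA1 (0.81). That profile lies between the pair that rose and the pair that fell. Single members had closer neighbours: GADD45GIP1 for CD3G (0.031), PPP1R1B for CD7 (0.041), LINC00426 for ZAP70 (0.030) and RAB7A for LAT (0.032), over 3 comparisons that share the DMSO samples.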
